A study of Homo sapiens with 12 samples.

Results

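The IGF2BP family comprises the RNA-binding proteins IGF2BP1, IGF2BP2 and IGF2BP3. Its members were taken as the rows whose gene symbol equals one of these names, which gave 3 genes of the 32287 symbols listed over 4 tables of differential expression. All 3 had a row in both MOLM13 tables, whereas IGF2BP2 and IGF2BP3 only had one in both U937 tables. RNA sequencing had been done on 12 libraries in 6 groups of 2 from human acute myeloid leukaemia cell lines. MOLM13, a line with a KMT2A fusion, received lentivirus carrying hairpin shBP3-1 or shBP3-2 against IGF2BP3, or the control hairpin shNS. U937 cells, a monocytic line, expressed IGF2BP3 fused to the mAID degron (BP3-mAID) in every group and were left untreated (NT) or exposed to the degrader ligand 5-Ph-IAA for 6 h or 24 h. The labels do not say whether the U937 line is a single clone, nor whether replicates were separate cultures, so p-values may measure technical spread only. NT cells received no ligand, so degradation and exposure to the ligand cannot be told apart.

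IGF2BP proteins bind mRNA through RRM and KH domains and are best known for holding their targets in a stable or translationally delayed state, among them transcripts carrying N6-methyladenosine. IGF2BP1 and IGF2BP3 are oncofetal: they are abundant in the embryo, nearly silent in most adult tissues and expressed again in many tumours. IGF2BP2 remains expressed in adult tissues. All are known targets of let-7, a microRNA family that accumulates as cells differentiate.

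In hg38 coordinates of GENCODE release 29, IGF2BP1 (ENSG00000159217) lies on chromosome 17 at 48997412 to 49055650, plus strand. IGF2BP2 (ENSG00000073792) lies on chromosome 3 at 185643739 to 185825056, minus strand, and IGF2BP3 (ENSG00000136231) on chromosome 7 at 23310209 to 23470467, minus strand. Their principal transcripts had coding sequences of 1734, 1800 and 1740 bases in that order, but 3′ UTRs of 6206, 1792 and 2153 bases. The 3 genes are paralogs, and 70.5% of aligned coding bases were identical between IGF2BP3 and IGF2BP1, 70.7% between IGF2BP3 and IGF2BP2, and 70.1% between IGF2BP1 and IGF2BP2. The longest run of identical bases between the IGF2BP3 and IGF2BP1 transcripts was 21 bases, at coding bases 121 to 141 of both. With IGF2BP2 the longest run of IGF2BP3 was 15 bases. The stretch is shown because a short sequence inside it matches both paralogs; capitals mark, within the window of the 21-base run, the bases that equal those of IGF2BP3 (18 of 21 in IGF2BP2). Sequences are from GENCODE release 29.
IGF2BP3: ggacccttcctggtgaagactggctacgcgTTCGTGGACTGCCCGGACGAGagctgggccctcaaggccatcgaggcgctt
IGF2BP1: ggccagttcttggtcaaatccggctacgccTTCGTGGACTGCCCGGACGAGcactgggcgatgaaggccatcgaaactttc
IGF2BP2: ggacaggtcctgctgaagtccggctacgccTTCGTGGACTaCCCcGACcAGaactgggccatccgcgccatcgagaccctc
The hairpin target sequences are not given in the sources used here, and a match of either hairpin to a paralog was not tested.

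**Figure D1:**
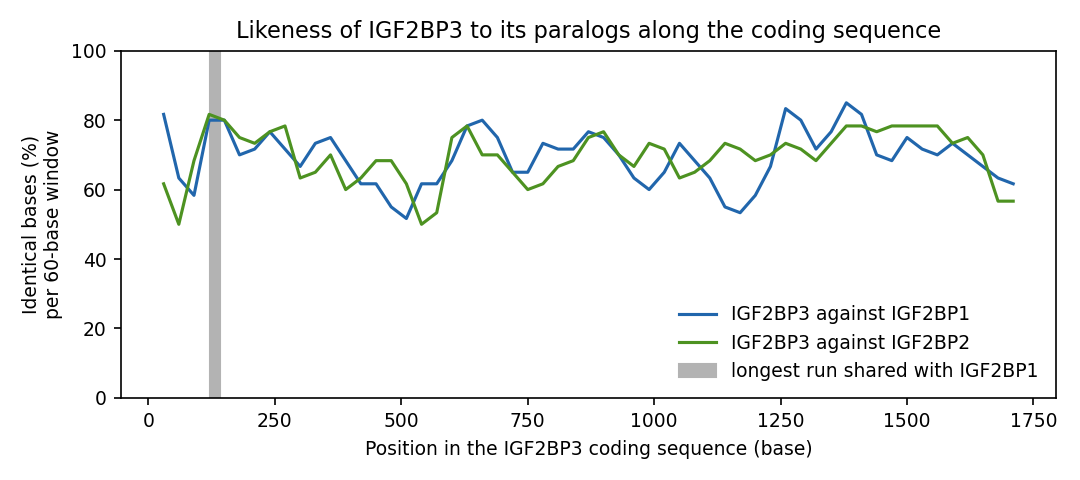
Percent of identical bases in 60-base windows (vertical axis) along the IGF2BP3 coding sequence (horizontal axis, bases), against IGF2BP1 and IGF2BP2; the grey band marks the 21 bases shared with IGF2BP1. Both lines lie between about 50% and 85% over the whole length, around whole-sequence identities of 70.5% and 70.7%.

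The 3′ UTRs are shown at their let-7 seed matches. All 9 mature microRNAs searched (let-7a to let-7i and miR-98, RefSeq, GRCh38.p14) carried the same seed at bases 2 to 8, in capitals in the example, and the match searched on the sense strand was CTACCTC, in capitals in the sites.
hsa-let-7a-5p: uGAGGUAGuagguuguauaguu
IGF2BP1 site 1: ctgtgtgcgaagtaaaCTACCTCaa
IGF2BP1 site 2: ccagcagtgctagtaaCTACCTCac
IGF2BP1 site 3: agtataaatggattaaCTACCTCaa
IGF2BP1 site 4: ttcacttttgttttatCTACCTCtt
IGF2BP2 site 1: aaacacacagaagaagCTACCTCag
IGF2BP3 site 1: gtgcatttttactcaaCTACCTCag
IGF2BP1 held 4 matches, of which 3 were followed by an A, and IGF2BP2 and IGF2BP3 held 1 each. Of 17675 annotated 3′ UTRs of at least 100 bases, 9.18% held at least 1 match and 0.0679% held 4 or more; these shares were not matched on UTR length. Mature let-7 was not measured, so the matches describe the sequence alone.

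The deposited tables give, per comparison, the mean normalised count with DESeq2's log2 fold change and adjusted p. Values of the single libraries were not held, so an SD cannot be given; group means were worked back from the mean and the fold change. Reads counted in listed genes, worked out from the lowest repeated means, were about 21900000 to 23400000 per library in MOLM13 and 10200000 to 15200000 in U937. Of 10 myeloid markers, 5 of 9 tested rose and 2 fell with shBP3-1, where 17.7% of all tested genes rose and 16% fell. With shBP3-2, 6 of 10 rose and 1 fell (19.4% and 22.1% of all tested genes). At 6 h 3 of 8 rose and 1 fell (10.9% and 12.3%), and at 24 h 5 of 8 rose and 2 fell (18.9% and 19.9%). PTPRC, SPI1 and CEBPA rose in each comparison as deposited, but the SPI1 call with shBP3-1 was lost after centring on a list of reference genes (0.26). ITGAM rose with shBP3-1 (log2 fold change 0.84) and shBP3-2 (1.14) and fell at 24 h (-1.75). CSF3R fell with shBP3-1 (-0.29), rose with shBP3-2 (1.37) and at 24 h (0.38), and its 0.16 at 6 h did not pass. CEBPB rose with shBP3-2 (1.06) and fell at 6 h (-0.68) and 24 h (-0.25, lost after centring at -0.06). Its -0.16 with shBP3-1 did not pass. MPO fell with both hairpins and averaged 148 normalised counts with shBP3-1 and 72.7 with shBP3-2, against 416 and 407 with shNS, and was near 0 in U937. CD68 had under 10 in every group. Of 11 markers of other lineages, 7 and 6 were listed in the MOLM13 tables and 4 in each U937 table. PECAM1, also made by myeloid cells, was the 1 of them that rose in each comparison, at log2 fold changes of 1.36, 2.03, 0.40 and 0.33 (shBP3-1, shBP3-2, 6 h and 24 h). The part of these markers in the results was not tested. In bulk RNA, fewer cells that express a gene and less RNA per cell cannot be told apart.

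IGF2BP3, the target of the hairpins, averaged 768 normalised counts with shBP3-1, against 1922 with shNS. With shBP3-2 it averaged 918, against 1880 with shNS in that table, where the same control libraries were scaled anew. On a common scale this was 34.2 CPM (counts scaled to a common library total) with shBP3-1 and 41.9 with shBP3-2, against 84.9 with shNS. Both knockdown levels were thus below the control, and IGF2BP3 mRNA remained detectable under both hairpins, with about 1570 and 1832 reads over the 2 libraries of each. The authors' deposited table gave a log2 fold change of -1.32 for shBP3-1 (adjusted p = 2.3e-28, DESeq2), and 189 of 12191 tested genes averaging 50 counts or more fell further. For shBP3-2 the authors' deposited table gave -1.03 (adjusted p = 1.6e-26, DESeq2), and 1232 of 12294 such genes fell further. The targeted transcript therefore stood near the edge of the fold changes with shBP3-1 but well inside them with shBP3-2.

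In the U937 comparisons the mRNA encoding the degron protein averaged 39.8 CPM in NT cells, 34.4 at 6 h and 46.8 at 24 h. The mAID system removes protein, which these data do not measure. The authors' deposited table gave log2 fold changes of -0.27 at 6 h (95% interval -0.54 to 0.01, adjusted p = 0.17, DESeq2) and 0.15 at 24 h (-0.05 to 0.36, adjusted p = 0.25). Neither passed the test, and the intervals leave room for a fall of up to 0.54 at 6 h and a rise of up to 0.36 at 24 h. After centring on a list of reference genes, whose median log2 fold change at 24 h was -0.20, the 24 h value became 0.35 and passed (adjusted p = 0.0026). Centred instead on the median of tested genes averaging 50 counts or more, it stayed at 0.15 and did not pass.

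**Figure D2:**
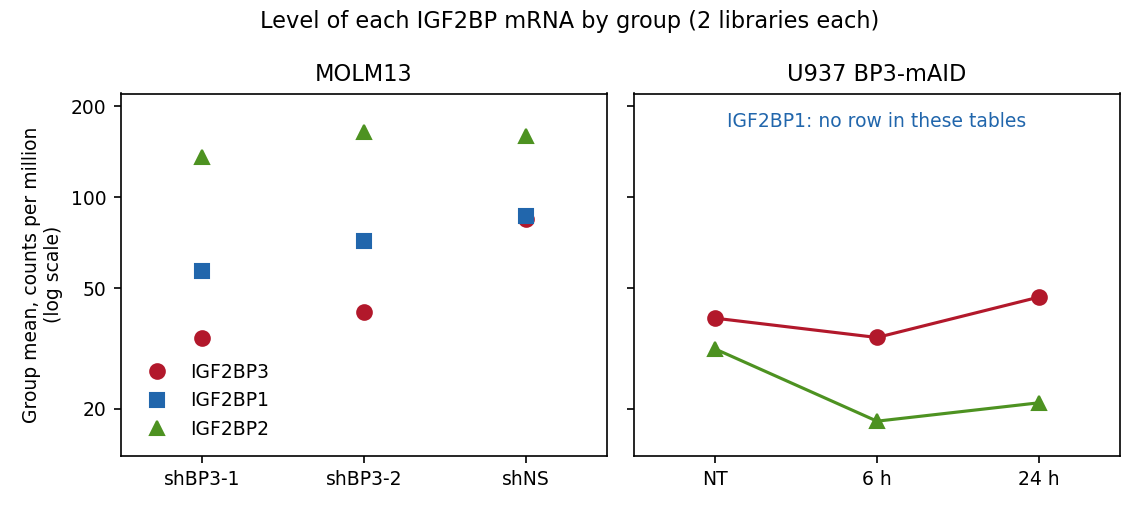
Group mean level of each IGF2BP mRNA in CPM (vertical axis, log scale) in the MOLM13 groups (left) and the U937 BP3-mAID groups (right); each point is worked back from the deposited values of 2 libraries, so no error bar can be drawn. IGF2BP3 stood at 34.2 and 41.9 under the hairpins against 84.9 with shNS, and IGF2BP2 in U937 was at 31.5 in NT cells, 18.2 at 6 h and 20.9 at 24 h.

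IGF2BP1, the oncofetal paralog with the longest 3′ UTR, averaged 1277 normalised counts with shBP3-1, against 1958 with shNS. With shBP3-2 it averaged 1574, against 1915 with shNS. In CPM these were 56.9 and 71.8 under the hairpins, against 86.5 in the control. The authors' deposited table gave a log2 fold change of -0.62 for shBP3-1 (95% interval -0.82 to -0.41, adjusted p = 4.2e-08, DESeq2), which corresponds to 65.2% of the control level. For shBP3-2 the authors' deposited table gave -0.28 (-0.45 to -0.11, adjusted p = 0.0039), or 82.2% of the control level. IGF2BP1 thus fell with both hairpins as deposited, but with shBP3-2 the change was 0.02 (adjusted p = 0.86) after centring on the reference genes, whose median there was -0.31. Centred instead on the median of tested genes averaging 50 counts or more, it was -0.22 and kept its call. IGF2BP1 had no row in the U937 tables and is not analysed there.

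IGF2BP2, the member kept in adult tissues, averaged 3041 normalised counts with shBP3-1, against 3592 with shNS, and 3588 with shBP3-2, against 3513 with shNS. It fell slightly with shBP3-1, with a log2 fold change of -0.24 in the authors' deposited table (95% interval -0.43 to -0.05, adjusted p = 0.039, DESeq2). The call was lost when every listed gene entered the adjustment (adjusted p = 0.064). Genes without a deposited p were there given the largest possible p, so an adjusted p could not fall. With shBP3-2 its log2 fold change in the authors' deposited table was 0.03 (-0.13 to 0.19, adjusted p = 0.82), which became 0.34 and passed (adjusted p = 8.4e-05) after centring on the reference genes. Centred on the median gene, the shBP3-2 value was 0.09 and did not pass.

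In U937 IGF2BP2 fell at both times. It averaged 31.5 CPM in NT cells, 18.2 at 6 h and 20.9 at 24 h, so both treated times lay below the untreated level. The authors' deposited table gave log2 fold changes of -0.85 at 6 h (95% interval -1.18 to -0.52, adjusted p = 6.4e-06, DESeq2) and -0.67 at 24 h (-0.93 to -0.41, adjusted p = 3.2e-06), equal to 55.6% and 62.9% of the NT level. Among tested genes averaging 50 counts or more, 252 of 11802 fell further at 6 h and 946 of 11943 at 24 h. These values rest on about 468 and 588 reads over 2 libraries at 6 h and 24 h, against 697 in NT cells.

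**Figure D3:**
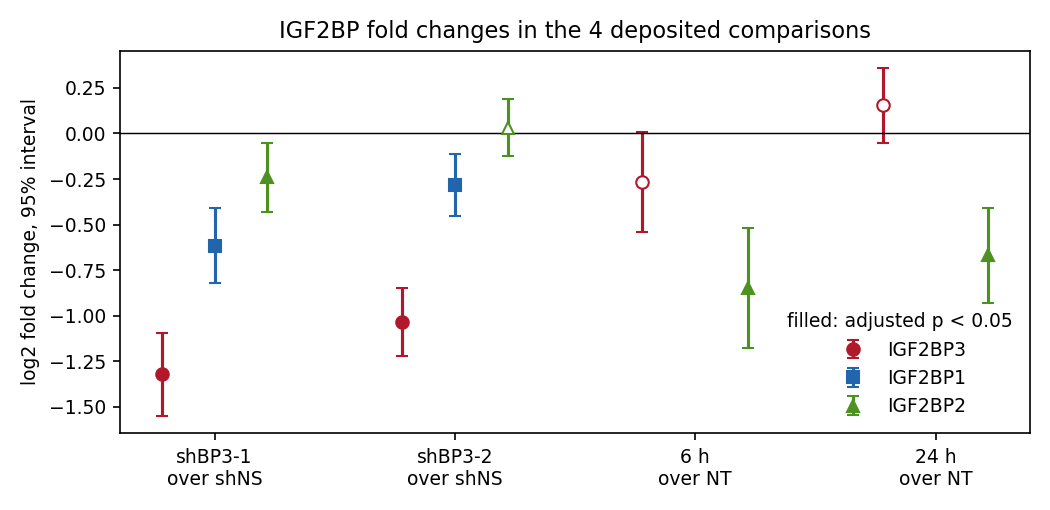
Deposited log2 fold change of each member (vertical axis) in the 4 comparisons (horizontal axis), with 95% intervals computed from the deposited p-values; filled points passed an adjusted p of 0.05. IGF2BP3 was lowest in the hairpin comparisons (-1.32 and -1.03) and IGF2BP2 in the degron comparisons (-0.85 and -0.67).

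Of 10 tests of a member in a comparison, those with shBP3-1 gave 3 falls of 3, where 33.7% of all tested genes were called and 16% fell. With shBP3-2, 2 of 3 fell (41.5% of tested genes called, 22.1% fell and 19.4% rose). At 6 h 1 of 2 fell (23.2% called, 12.3% fell), and at 24 h 1 of 2 fell (38.8% called, 19.9% fell and 18.9% rose). With so many genes called, a single call is not unusual, and IGF2BP3 is the designed target of the hairpins.

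**Figure D4:**
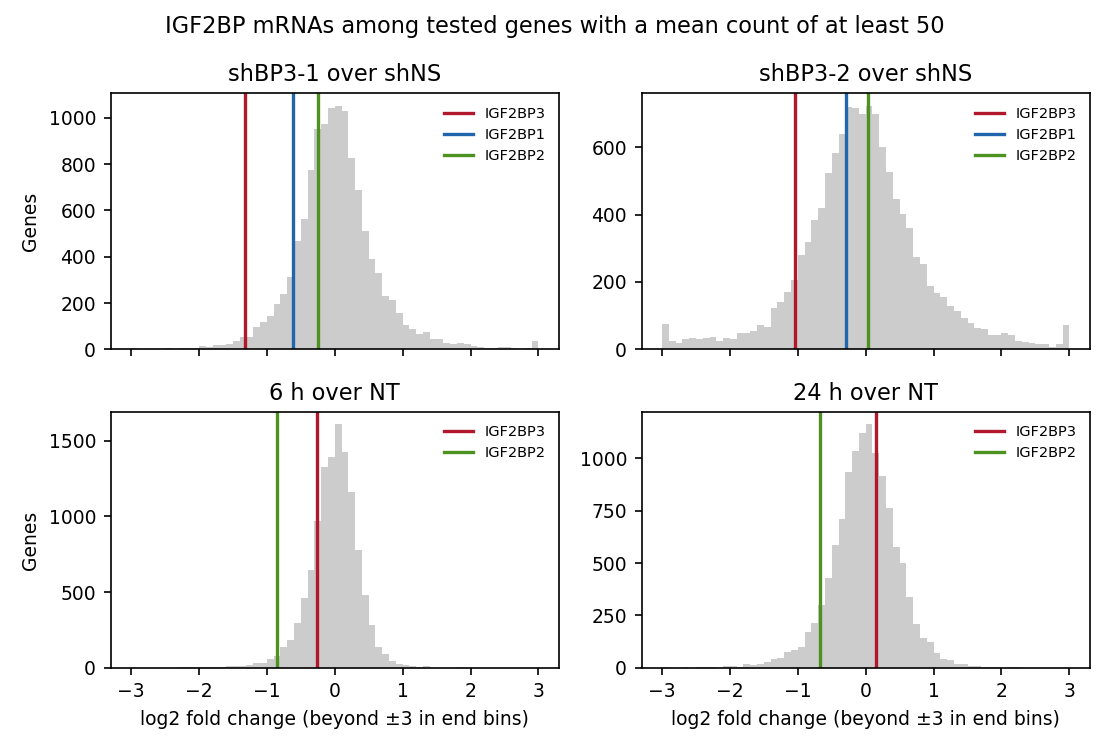
Number of tested genes averaging 50 counts or more (vertical axis) by log2 fold change (horizontal axis) in each comparison, with the members as vertical lines; values beyond 3 in either direction are in the end bins. IGF2BP3 with shBP3-1 (-1.32) and IGF2BP2 at 6 h (-0.85) lie towards the lower edge, with 189 and 252 genes below them.

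The members were next compared with each other within each comparison. With shBP3-1 the fold change of IGF2BP3 was below that of IGF2BP1 by a log2 difference of -0.71 (95% interval -1.01 to -0.40) and below that of IGF2BP2 by -1.08 (-1.38 to -0.79). With shBP3-2 the same differences were -0.75 (-1.004 to -0.50) and -1.06 (-1.31 to -0.82). IGF2BP1 lay below IGF2BP2 by -0.38 (-0.65 to -0.10) with shBP3-1 and -0.31 (-0.55 to -0.08) with shBP3-2. In U937 the order was the other way round, with IGF2BP3 above IGF2BP2 by 0.58 (0.15 to 1.01) at 6 h and 0.82 (0.49 to 1.15) at 24 h. These differences do not depend on centring, and their intervals treat the members as independent.

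Between hairpins, none of the 3 members differed as deposited at an adjusted p under 0.05 with the shared control counted as separate, a test that called 27.4% of genes. The difference shBP3-2 minus shBP3-1 was 0.33 for IGF2BP1 (95% interval 0.07 to 0.60, adjusted p = 0.053), 0.27 for IGF2BP2 (0.03 to 0.52, adjusted p = 0.096) and 0.29 for IGF2BP3 (-0.0047 to 0.58, adjusted p = 0.15). At an unadjusted p under 0.05, 2 of them passed, and with the shared control removed from the error all 3 did (adjusted p = 0.0020, 0.0069 and 0.018, with 40.5% of genes called). That removal assumes that every group adds the same variance to a gene, which was not tested. The reference genes had medians of 0.06 with shBP3-1 and -0.31 with shBP3-2. Centring on them adds the same amount to the difference between hairpins for every gene. The wider gap it gave for each member was thus fixed by the shift. After centring, with shBP3-1 and shBP3-2, IGF2BP1 was at -0.67 and 0.02, IGF2BP2 at -0.30 and 0.34, and IGF2BP3 at -1.38 and -0.73. The differences between these centred values were not tested. Between times, 24 h minus 6 h, the difference was 0.18 for IGF2BP2 (-0.24 to 0.60, adjusted p = 0.65) and 0.42 for IGF2BP3 (0.08 to 0.76, adjusted p = 0.065), where 23% of genes were called. The IGF2BP3 difference passed with the shared control removed on the same assumption of equal variance (adjusted p = 0.0026, 37.5% of genes called). Differences between times were likewise not tested after centring on the reference genes.

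As deposited, IGF2BP2 was lower against its control in U937 than in MOLM13. The log2 fold change with shBP3-1 exceeded that at 6 h by 0.61 (95% interval 0.23 to 0.99, adjusted p = 0.0072, 33.1% of genes called) and that at 24 h by 0.43 (0.11 to 0.75, adjusted p = 0.028, 36.7% called). With shBP3-2 the excess was 0.88 over 6 h (0.51 to 1.24, adjusted p = 1.0e-05, 47.3% called) and 0.70 over 24 h (0.39 to 1.00, adjusted p = 2.8e-05, 45.8% called). These tests were added after the tables were seen, and cell line, means of IGF2BP3 loss, length of loss and library type cannot be told apart in them. After centring on the reference genes IGF2BP2 was at -0.30 with shBP3-1 and 0.34 with shBP3-2, against -0.86 at 6 h and -0.47 at 24 h. The differences between those centred values were not tested.

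Levels were compared between members only per length, as CPM per kilobase. With the union of annotated exons as length, IGF2BP2 led with shBP3-1 (28.6), shBP3-2 (34.6) and shNS (33.5). IGF2BP1 followed under the hairpins at 6.25 and 7.88, against 9.496 with shNS, and IGF2BP3 stood at 4.02 and 4.92, against 9.98 with shNS. The lead of IGF2BP2 held with the length of the principal transcript (36.7 and 44.4 under the hairpins, against 43.0 with shNS), but the order of the other members did not: by that length IGF2BP3 was above IGF2BP1 in all 3 groups (8.05 and 9.85 under the hairpins, against 19.98 with shNS, where IGF2BP1 had 6.88 and 8.68, against 10.5). By union length IGF2BP3 made up 10.3% and 10.4% of the summed family level under the hairpins, against 18.8% with shNS. By principal transcript it made up 15.6% and 15.7%, against 27.2%.

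In U937 the per-length level of IGF2BP2 by union length was 6.66 in NT cells, 3.84 at 6 h and 4.42 at 24 h. That of IGF2BP3 was 4.68, 4.04 and 5.49 at the same points, so IGF2BP2 was above IGF2BP3 in NT cells and below it at both treated times. By principal transcript IGF2BP3 was above IGF2BP2 in NT cells also (9.37 against 8.55). Without values per library, neighbours in these orders cannot be separated by their spread. The MOLM13 and U937 tables were normalised separately and their labels name different RNA, so levels across the lines stand side by side only.

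Genes overlapping or nearest to the members were listed beside them, and their effect on the members' counts was not tested. MALSU1, a mitochondrial ribosome assembly factor, overlaps the 3′ end of IGF2BP3 by 1.52 kb on the other strand, and it is not stated that counting used strand. MALSU1 fell with shBP3-2 (log2 fold change -1.10, adjusted p = 4.3e-09, DESeq2) and had values of -0.22, 0.05 and -0.12 with shBP3-1, at 6 h and at 24 h that did not pass. IGF2BP2-AS1, antisense within IGF2BP2, had a mean count of 0.757 and 0.497 in the MOLM13 tables. Of the nearest genes outside the members, GPNMB, a lysosomal glycoprotein 35.1 kb from IGF2BP3, rose with shBP3-1 (1.46), with shBP3-2 (3.78) and at 6 h (1.00) and fell at 24 h (-0.23), a call lost after centring on the reference genes (-0.03). SENP2, 10.2 kb from IGF2BP2, fell with shBP3-2 (-0.74) and passed in no other comparison. SNF8, 52.3 kb from IGF2BP1, passed with neither hairpin as deposited (-0.02 and -0.0045). With shBP3-2 it became 0.30 after centring and passed. TRA2A, 34.3 kb from IGF2BP3, fell with shBP3-1 (-0.38) and shBP3-2 (-0.54). It fell at 24 h (-0.32, lost after centring at -0.12) and rose at 6 h (0.36). TRA2B, a splicing factor 90.9 kb from IGF2BP2, fell with shBP3-1 (-0.34), with shBP3-2 (-0.90) and at 24 h (-0.27, lost after centring at -0.07) and rose at 6 h (0.72). ETV5, an ETS transcription factor 221 kb from IGF2BP2, fell with shBP3-1 (-0.90), with shBP3-2 (-0.82), at 6 h (-2.01) and at 24 h (-2.29).

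A set of 5 gene lists related to the family was counted beside it, and some genes are in more than 1 list. Of all tested genes, 16% fell and 17.7% rose with shBP3-1, and 22.1% and 19.4% with shBP3-2. At 6 h 12.3% fell and 10.9% rose, and at 24 h 19.9% and 18.9%. These shares stand beside the counts as deposited, but they include genes of low count, at which a change is harder to call. With shBP3-2, tested genes went down to a mean of 2.46, and 12294 of 20768 averaged 50 counts or more. Shares among genes as abundant as the list members were not worked out. Centring on the reference genes shifted all fold changes by 0.31 with shBP3-2 and 0.20 at 24 h. The counts and medians it gave are printed beside those as deposited. The median of all tested genes moves by the same shift, and the shares of all tested genes called after centring were not worked out. The centred counts therefore cannot be read against the shares above. Calls of named genes that centring ended or added are given with them. The first list holds proteins known to share RNP granules with IGF2BPs or to govern mRNA stability. With shBP3-1, 8 of its 16 tested members fell and 1 rose (median log2 fold change -0.36, against -0.01 over all tested genes). With shBP3-2, 14 of 16 fell and 0 rose (median -0.53, against 0.02, or -0.06 over tested genes averaging 50 counts or more). At 6 h 6 of 15 fell and 5 rose (median 0.01, against 0.01), and at 24 h 11 of 15 fell and 3 rose (median -0.36, against 0.01). After centring, 10 fell and 0 rose with shBP3-1, 8 fell and 2 rose with shBP3-2 (median -0.22), and 7 fell and 4 rose at 24 h (median -0.17). The values of PABPC1, FMR1 and UPF1 with shBP3-2 and of DHX9 and LARP1 at 24 h turned from below to above 0. YBX1, a cold-shock protein that binds mRNA, fell in each of the 4 comparisons (-0.57, -0.49, -0.29 and -0.40 for shBP3-1, shBP3-2, 6 h and 24 h), but with shBP3-2 the call was lost after centring (-0.18, adjusted p = 0.43). SYNCRIP, a component of IGF2BP1 RNPs, fell with shBP3-1 (-0.38) and shBP3-2 (-0.90) and rose at 6 h (0.48) and 24 h (0.16). ELAVL1, the HuR stabiliser, fell with shBP3-2 (-0.57), at 6 h (-0.30) and at 24 h (-0.44), and its value of 0.08 with shBP3-1 did not pass. HNRNPD, an AU-rich element binder, fell with shBP3-1 (-0.63), shBP3-2 (-1.12), at 6 h (-0.17) and at 24 h (-0.21, lost after centring at -0.01). UPF1, the nonsense-mediated decay helicase, rose at 6 h (0.40) and 24 h (0.61), fell with shBP3-2 (-0.28, lost after centring at 0.03) and had -0.12 with shBP3-1, which did not pass.

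The second list holds transcripts described as bound by IGF2BPs. Of 22 tested members, 11 fell and 5 rose with shBP3-1 (median log2 fold change -0.22), 16 fell and 2 rose with shBP3-2 (-0.87), 9 fell and 4 rose at 6 h (-0.11), and 10 fell and 5 rose at 24 h (-0.29). After centring, 11 fell and 3 rose with shBP3-1, 14 fell and 4 rose with shBP3-2 (median -0.56, with SRF turned above 0), and 9 fell and 10 rose at 24 h (-0.098). MYC, the transcription factor whose coding region is a classical IGF2BP1 site, averaged 157 CPM with shBP3-1 and 108 with shBP3-2, against 306 with shNS. Its log2 fold changes were -0.98 and -1.52, and in U937 it had -0.11 at 6 h (adjusted p = 0.086, DESeq2, not passed) and fell by 0.49 at 24 h. GPT2, which converts pyruvate and glutamate, fell in each of the 4 comparisons (-1.81, -2.84, -1.48 and -1.78), as did SLC1A5, a glutamine transporter (-1.07, -2.31, -0.56 and -1.15). The proliferation genes FOXM1 and MKI67 fell with shBP3-1 (-1.24 and -1.40), with shBP3-2 (-3.02 and -2.83) and at 6 h (-0.19 and -0.12), while at 24 h FOXM1 fell (-0.47) and MKI67 rose (0.13). CD44, an adhesion receptor, rose with shBP3-1 (0.36), shBP3-2 (0.92) and at 24 h (0.31) and fell at 6 h (-0.32). ACTB, whose transcript IGF2BP1 localises, rose with shBP3-1 (0.22) and fell with shBP3-2 (-0.35), at 6 h (-0.31) and at 24 h (-0.65); both hairpin calls were lost after centring (0.16 and -0.04), and ACTB is itself 1 of the reference genes. CCND1, a cyclin, rose with shBP3-1 (1.94), and its values of -0.10 with shBP3-2, -0.82 at 6 h and -0.54 at 24 h did not pass. HOXA9, a leukaemia transcription factor, fell with shBP3-1 (-0.36) and shBP3-2 (-1.14) and rose at 24 h (1.17), and its 0.06 at 6 h did not pass.

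The third list holds the let-7 pathway and other oncofetal genes. Of 16 tested members, 4 fell and 4 rose with shBP3-1 (median log2 fold change -0.13), and 6 fell and 6 rose with shBP3-2 (-0.0047). Of 14 tested in U937, 1 fell and 4 rose at 6 h (0.11), and 4 fell and 6 rose at 24 h (0.14). After centring, 6 fell and 2 rose with shBP3-1, 5 fell and 8 rose with shBP3-2 (median 0.30), and 2 fell and 10 rose at 24 h (0.34). HMGA2, an oncofetal chromatin protein and let-7 target, averaged 263 normalised counts with shBP3-1, against 585 with shNS (log2 fold change -1.15), and 205 with shBP3-2, against 572 (-1.48). In U937 it had a mean of under 10 in every group and was not tested. HMGA1, its relative, fell in each of the 4 comparisons (-0.39, -1.08, -0.54 and -1.01). LIN28B, the inhibitor of let-7 maturation, had under 5 normalised counts in each MOLM13 group and was not tested. The let-7 host transcript MIRLET7BHG averaged 1427 normalised counts with shBP3-1, against 2119 with shNS (-0.57), and 1665 with shBP3-2, against 2072 (-0.32, a call lost after centring at -0.0077); in U937 its mean was 1.08 or less. AGO2, the slicing Argonaute, fell with shBP3-2 (-1.21) and had values of -0.10, -0.11 and -0.06 with shBP3-1, at 6 h and at 24 h that did not pass. Its 24 h value became 0.14 after centring and passed. The silencing scaffold TNRC6B rose with shBP3-1 (0.23, lost after centring at 0.17), shBP3-2 (1.21) and at 24 h (0.37), and its -0.25 at 6 h did not pass.

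Other proteins with KH domains are the fourth list. With shBP3-1, 7 of 23 tested members fell and 2 rose (median log2 fold change -0.06), with shBP3-2 14 of 25 fell and 4 rose (-0.30), at 6 h 6 of 24 fell and 4 rose (-0.02), and at 24 h 8 of 24 fell and 4 rose (-0.03). After centring, 7 fell and 7 rose with shBP3-2 (median 0.01) and 2 fell and 11 rose at 24 h (0.17). FMR1, FUBP3 and ANKRD17 with shBP3-2 and PCBP1 and HNRNPK at 24 h turned above 0. FUBP1 and KHSRP, single-strand binding proteins, fell with shBP3-1 (-0.67 and -0.52) and shBP3-2 (-1.05 and -1.003). KHSRP also fell at 6 h (-0.20) and 24 h (-0.36), where the FUBP1 values of 0.0043 and 0.10 did not pass. FUBP1 at 24 h became 0.30 after centring and passed. HNRNPK fell in each of the 4 comparisons as deposited (-0.22, -0.57, -0.45 and -0.19). MEX3A, an RNA-binding ubiquitin ligase, fell with shBP3-2 (-1.56, lost after centring at -1.25) and at 6 h (-1.23), and its 0.61 with shBP3-1 and -0.15 at 24 h did not pass. FXR1, a relative of the fragile X protein, fell with shBP3-1 (-0.41) and shBP3-2 (-0.49) and rose at 24 h (0.64), and its -0.02 at 6 h did not pass.

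The fifth list holds the insulin-like growth factor axis after which the family is named. Of 7 tested members with shBP3-1, 2 fell and 1 rose (median log2 fold change -0.11), and of 10 with shBP3-2, 1 fell and 4 rose (0.24). Of 9 tested in U937, 5 fell and 1 rose at 6 h (-0.53), and 5 fell and 1 rose at 24 h (-0.25). After centring, 0 fell and 4 rose with shBP3-2 (median 0.55), and 3 fell and 2 rose at 24 h (-0.054). IGF2 is not analysed here. IGF1R, the growth factor receptor, rose with shBP3-2 (0.71) and had values of -0.11, -0.01 and -0.03 in the other comparisons that did not pass; at 24 h it became 0.17 after centring and passed. IGF2R, which clears IGF2, rose with shBP3-1 (0.59) and shBP3-2 (1.38) and fell at 6 h (-0.70) and 24 h (-0.96). IRS2, the insulin receptor adaptor, rose with shBP3-2 (1.67), at 6 h (0.86) and at 24 h (1.31), and its -0.20 with shBP3-1 did not pass. IGFBP4, a binding protein of the growth factors, fell at 6 h (-2.16) and 24 h (-1.26), and its values of 0.52 with shBP3-1 and 0.19 with shBP3-2 did not pass.

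**Figure D5:**
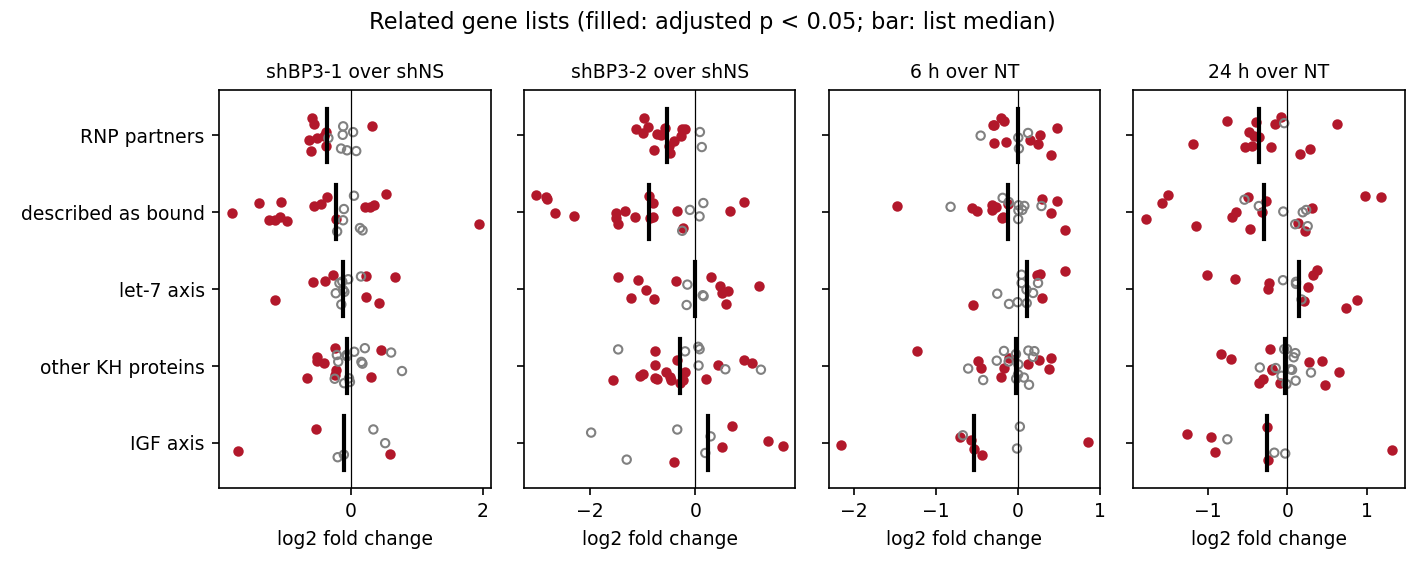
Log2 fold change (horizontal axis, its range set per panel) of every tested member of the 5 lists (rows) in the 4 comparisons; filled points passed an adjusted p of 0.05 and the bar is the list median. The RNP partners lie mostly below 0 with shBP3-2 (median -0.53) and around 0 at 6 h (median 0.01).

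The genes whose fold changes were most like those of a member were found by the root mean squared difference over the comparisons in which it was tested. For IGF2BP3, among 9749 genes over 4 comparisons, these were WASF1 (0.11), FUT7 (0.13) and SHANK1 (0.17). For IGF2BP2 they were TFR2 (0.10), ATP2A3 (0.12) and GSDMB (0.13). For IGF2BP1 only the 2 hairpin comparisons could be used, and RPL7A, at 0.01, was among the nearest of 11994 genes.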

How the data were processed

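Libraries were made from mRNA captured on beads with a VAHTS kit, per the labels' protocols, although the labels name total RNA for MOLM13. Per the submitters' processing notes, cutadapt 4.1, HISAT2 2.1.1, HTSeq 2.0.2, DESeq2 and the build hg38 were used. Per the file headers, the signal is a base mean, that is, a count normalised by the authors and averaged over both groups. The log2 fold changes and the adjusted p-value are the authors' deposited DESeq2 values. Tables of the single libraries were not used here, so the planned count tests could not be run and these statistics took their place, with a call at an adjusted p under 0.05.

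An unadjusted p was recovered by undoing the Benjamini-Hochberg step (an upper bound where adjusted values tie), and a standard error by assuming a normal (Wald) test; intervals are 95%. CPM divides a group mean by the sum of group means. Differences between comparisons were set against their combined standard error and adjusted over all genes tested in both. The variance of a shared control was not estimated. Where it was removed, the summed variance was cut to the share of the tested groups, with all groups assumed equal in variance. The recovery of standard errors and the test of differences were run on simulated normal values. The simulation used the same normal formula, so it recovers the standard errors by construction and does not test the Wald assumption. Neither size factors nor a shared control were simulated. Of the differences called there, 2.8% (shBP3-1) to 7.8% (6 h) were false. Exon union lengths were from the primary assembly annotation of GENCODE release 29, which matched 95.5% to 95.9% of rows. Coding and UTR positions in transcripts were from its basic annotation, and microRNAs from RefSeq. Coding sequences were aligned with Biopython 1.88, and other steps used Python 3.11.15, pandas 2.3.3 and SciPy 1.17.1. The members and gene lists were chosen with earlier results of these data known. Named genes were the members, MYC, HMGA2, LIN28B, CD44, ACTB, IGF2, IGF1R, SYNCRIP, ELAVL1 and YBX1, up to 4 called genes of largest change per list and comparison, the nearest tested neighbours and the 3 genes nearest in pattern (mean count of at least 50); only some of these are given. SLC1A5, HMGA1, MIRLET7BHG, MPO, PECAM1 and the genes said to turn after centring were in part chosen after their values were seen, as was the centring of the gene lists on the reference genes.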

Additional observations from a re-analysis of the deposited data

Results flagged for a closer look

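Fold changes of a member that differed between a hairpin comparison in MOLM13 and a degron comparison in U937 are listed here because the test of the difference passed. For IGF2BP2 the hairpin value exceeded the degron value by 0.61 (shBP3-1 minus 6 h), 0.43 (shBP3-1 minus 24 h), 0.88 (shBP3-2 minus 6 h) and 0.70 (shBP3-2 minus 24 h) on the log2 scale. For IGF2BP3, whose mRNA is the target of the hairpins but not of the degron, the differences were -1.06, -1.48, -0.77 and -1.19 in the same order. Cell line and the means of IGF2BP3 loss cannot be told apart in these differences. They are differences of deposited values and were not tested after centring on the reference genes. Groups of 2 libraries are too small for a search for outlying libraries.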

How the results depend on the processing

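No paired analysis was possible because no values per library were held; fits leaving out a replicate, with a replicate block, or with another count tool were for the same reason not run. Of 50 alternative settings of a member's fold change, 45 kept its direction and side of the threshold. Only centring, on the median gene or on the reference genes, altered the fold change itself. The other rules kept it as deposited, so there only its call could move. Centring on the reference genes turned IGF2BP1 with shBP3-2 to 0.025 and carried IGF2BP2 with shBP3-2 (0.34) and IGF2BP3 at 24 h (0.35) past the threshold. Centring on the median gene did none of this. Of the 16 reference genes themselves, 9 fell and 2 rose with shBP3-2, with values from -1.40 to 1.48. At 24 h 7 of them fell and 2 rose. IGF2BP2 with shBP3-1 (-0.24) lost its call at an adjusted p under 0.01 and without a filter on low counts. In that last setting the filtered genes had no deposited p and were given the largest possible, so an adjusted p could not fall. Of the differences between hairpins, centring each table on its median gene carried IGF2BP1 (0.39) and IGF2BP2 (0.33) past the threshold. Removing the shared control from the error did so for IGF2BP1 (0.33), IGF2BP2 (0.27) and IGF2BP3 (0.29), and for IGF2BP3 between 24 h and 6 h (0.42), since it lowers the standard error. These passes rest on the assumption of equal variance in every group. No difference between comparisons was tested after centring on the reference genes. Of 60 list counts under another rule, 20 moved by over 1.5 times, most when a fold of at least 1.5 was asked for. The cause was not tested for the other changes. Depth limits IGF2BP2 in U937 most, at 468 reads over 2 libraries at 6 h.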
